A study of Mus musculus with 6 samples.

Results

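Growth factor signals through receptor tyrosine kinases were examined as the RNA of 10 genes in smooth muscle cells of the mouse aorta, which contract to set vessel tone. The set comprised 4 receptor genes (Pdgfrb, Igf1r, Fgfr1 and Egfr) and 6 ligand genes (Pdgfa, Pdgfb, Pdgfc, Pdgfd, Igf1 and Fgf2), chosen by gene symbol from the 20199 genes of the deposited count table. All 10 were found once in the table and passed the filter on low counts, among 15185 genes tested. The samples were 3 libraries of miR-21fl/flmTmG/Myh11ERT2 mice, called knockout here after the group label miR21 -/-, and 3 libraries of WT/mTmG/ Myh11ERT2 mice, called wild type. All 6 came from aortas of C57B6 mice 12 weeks old, and mTmG, which reports Cre by a switch of fluorescent colour, was common to both groups, as was Myh11ERT2, a driver that carries the name of the smooth muscle myosin gene. A driver of that kind acts in smooth muscle, so other cells in a sample would keep their floxed alleles. The sources used here do not give the inducer, how cells were isolated, or whether each library came from its own animal, so p-values measure the spread between these libraries, part of which may be technical. Loss of the microRNA was not checked, because libraries of long RNA do not measure the mature molecule.

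Receptor tyrosine kinases are membrane proteins that act as pairs, phosphorylate each other when a ligand binds and start the Ras-ERK and PI3K-Akt relays. In arteries, PDGF made by endothelium, platelets and the muscle cells themselves acts on PDGF receptor beta to make smooth muscle migrate and divide, while FGF2, IGF1 and ligands of the EGF receptor act on their own receptors with partly shared relays. The microRNA miR-21 represses messenger RNAs that hold a match to its seed, and it has been studied in vascular smooth muscle as a regulator of growth.

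The sequences below show where the seed of miR-21, the microRNA whose alleles are floxed in the knockout, can pair with messages of the set. The mature mouse microRNA is encoded on the minus strand of chromosome 11 from 86584120 to 86584141 (GRCm38.p6, the build also called mm10), and its sequence is from RefSeq. Capitals mark the seed, bases 2 to 8 of the microRNA, and below it the matching bases of each site, written as DNA on the message strand.
mmu-miR-21a-5p: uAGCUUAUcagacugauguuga
Egfr, first site: ctctactttcttttgATAAGCTtgtg
Egfr, second site: gcattattacagagcTAAGCTAgacc
Pdgfa, first site: tacaccatgaagtgagTAAGCTtctc
Pdgfa, second site: agagattattttatagTAAGCTgttg
The Egfr sites lie at bases 3702 to 3708 and 4132 to 4138 of a 3′ UTR of 6303 bases, and the first is the motif ATAAGCT. The motif of the second is TAAGCTA. Pdgfa held the shorter motif TAAGCT at bases 653 to 658 and 1017 to 1022 of 1203 bases. The other 8 genes held none of these letters in the longest 3′ UTR annotated for them in GENCODE vM1, which gave sequence and no coordinates. That UTR had 197 bases for Igf1r and 271 for Fgf2, so little of either message was searched. Of 11144 tested genes searched on the message strand, 11.9% held at least one of the Egfr motifs, and 25.5% held at least the motif of Pdgfa, which is part of both. The match describes letters in these windows and not pairing in the cells.

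Across the 10 genes, 0 passed edgeR's quasi-likelihood test at a Benjamini-Hochberg adjusted p under 0.05, where 0% of all genes passed. DESeq2 and limma voom also called 0 of the 10. At an unadjusted p under 0.05 edgeR listed 1 of the 10, Pdgfb, against 6.29% of all genes, and DESeq2 called 0.475% of the genes to which it gave an adjusted p. The fitted mean was higher in knockout for 7 of the 10, against 49.9% of all genes, and lower for 3, against 50.1%. The median log2 fold change was 0.16, where the median over all genes was −0.00078. Among the 7, Pdgfd turned to −0.04 without wild-type replicate 1. The others of the 7 kept their sign, and all of these but Igf1r had smaller values. The groups did not overlap for 2 of the 10, Pdgfb and Fgf2, both higher in knockout, against 14.5% of all genes in either direction and 6.95% in that direction. Levels are given below as CPM, counts relative to the TMM-scaled size of the library, with fold changes as log2 of knockout over wild type ± SE.

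**Figure D1:**
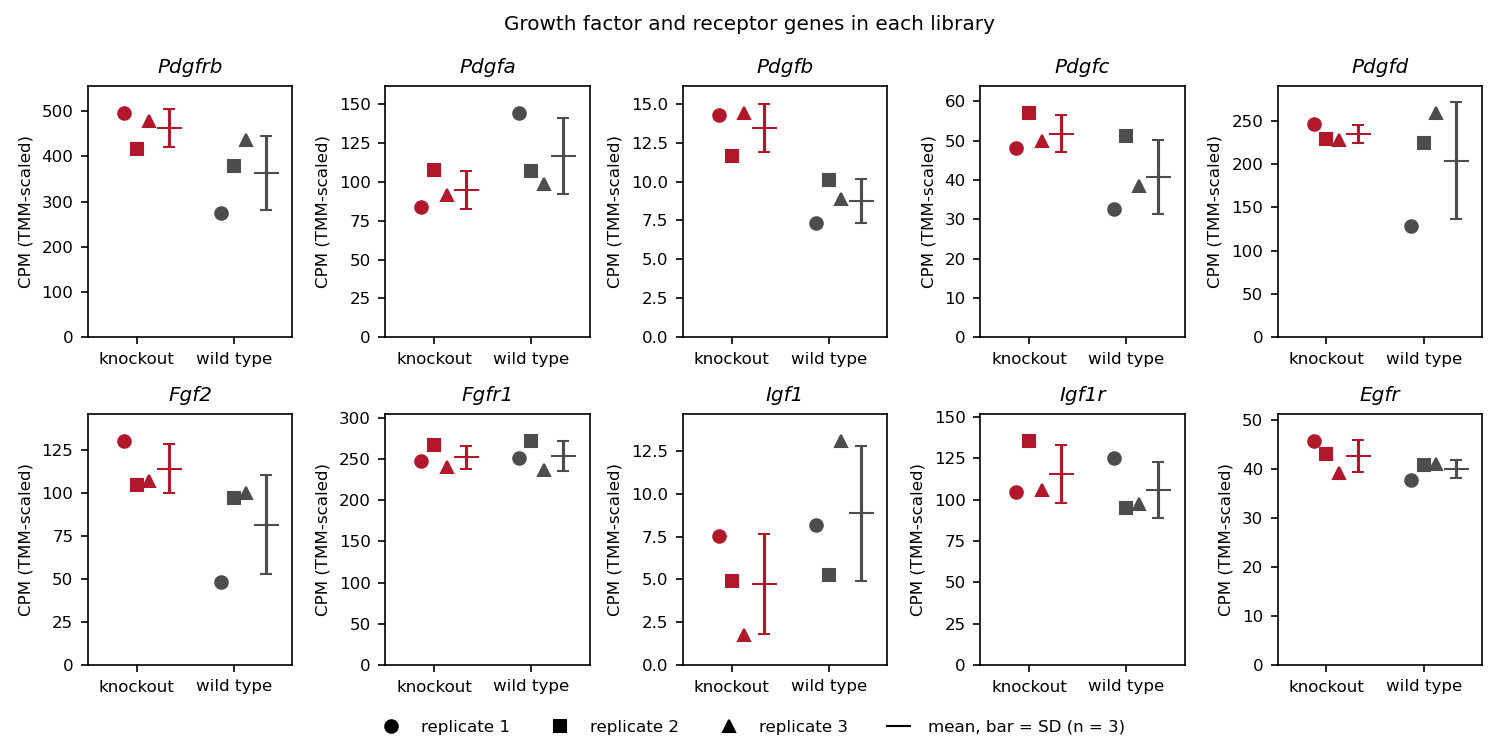
TMM-scaled CPM (linear axis from 0) of the 10 genes in each library, with knockout on the left and wild type on the right of each panel. Symbols are replicates 1 to 3 and the bar is the mean with its SD (n = 3). The 2 genes whose groups do not overlap are Pdgfb and Fgf2, and wild-type replicate 1 is the lowest library for 6 genes, Fgf2 at 48.5 CPM among them.

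Library depth ran from 17123748 to 28610649 counts. Wild-type replicate 1 stood apart on the first principal component (40.6% of the variance), at −58.1 against 1.53 to 27.3 for the other 5 libraries. Against the mean of the other wild-type libraries its log2 CPM had a median difference of 0.24 for the 4202 genes with the least exon length and −0.22 for the 4201 with the most (12605 of 15185 genes had a length in GENCODE vM1). Knockout libraries differed from those wild-type libraries by medians of −0.02 and 0.02 for the same genes. This library was the lowest of the 6 for 6 of the 10 genes, against 32.4% of all genes tested, and the highest for 1, against 32.1%. Fold changes of the 10 genes are given without it where they moved by over 1.5 times, or as their range with each library left out in turn. The part of exon length in the results was not tested. The summed CPM of 8 smooth muscle markers ran from 43600 to 44700 in knockout and from 42200 to 48600 in wild type. In knockout the fitted mean was higher for 1 of the 8 and lower for 7 (median log2 fold change −0.11), and 0 were called in edgeR, DESeq2 or limma voom. The higher one was Myh11, the smooth muscle myosin heavy chain gene, at 9142 to 11030 CPM in knockout and 6560 to 9893 CPM in wild type. Cnn1, the calponin gene, was at 2510 to 2680 CPM in knockout and 2830 to 3700 CPM in wild type, with no overlap (−0.32, edgeR adjusted p = 0.778), and was the one of the 8 with an unadjusted p under 0.05.

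Among the receptors, Pdgfrb, which encodes PDGF receptor beta (chromosome 18, 61045150 to 61085061, plus strand, mm10), had the highest level per length. It was at 496, 417 and 478 CPM in knockout replicates 1 to 3 and at 276, 379 and 437 CPM in wild-type replicates 1 to 3. The groups overlapped, since knockout replicate 2 lay below wild-type replicate 3, and the lowest value by far was that of wild-type replicate 1. The means were 464 ± 41.7 CPM in knockout and 364 ± 81.7 CPM in wild type (SD, n = 3 each), a log2 fold change of 0.35 ± 0.17 that did not pass (edgeR adjusted p = 0.778; exact 2-sided permutation p = 0.2 on log2 CPM, with 0.1 the least that 3 against 3 libraries can give). With 1 library left out it ran from 0.18 (without wild-type replicate 1) to 0.50 (without wild-type replicate 3). Summed markers of pericytes, mural cells that also use this receptor, ran from 3260 to 3570 CPM in knockout and from 2670 to 3610 CPM in wild type. The sum was lowest in wild-type replicate 1, as were Cspg4 and Abcc9. The other markers of the list, Rgs5, Kcnj8, Notch3, Ndufa4l2 and Higd1b, were lowest in other libraries. The part of pericytes in the Pdgfrb values was not tested.

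Fgfr1 and Egfr, the genes of FGF receptor 1 and the EGF receptor, varied least among the 10. Fgfr1 (chromosome 8, 25513654 to 25575718, plus strand) was at 248, 267 and 241 CPM in knockout and at 252, 272 and 237 CPM in wild type. The 2 groups covered almost the same range, with a log2 fold change of −0.0089 ± 0.11 (edgeR adjusted p = 0.989) whose sign turned when libraries were scaled by their totals alone (0.03), and it was −0.01 without wild-type replicate 1. Egfr (chromosome 11, 16752203 to 16918158, plus strand) was at 45.8, 43.1 and 39.2 CPM in knockout and at 37.9, 40.9 and 41.1 CPM in wild type.
For this gene, whose 3′ UTR holds the pair of longer miR-21 seed matches shown above, the groups overlapped and the log2 fold change was 0.09 ± 0.12 (edgeR adjusted p = 0.848), and ran from 0.04 (without knockout replicate 1) to 0.15 (without knockout replicate 3) with 1 library left out. The highest library exceeded the lowest 1.15-fold for Fgfr1 and 1.21-fold for Egfr, against 7.53-fold for Igf1 and 2.70-fold for Fgf2. A gene annotated on the other strand inside Egfr, the antisense RNA Egfros, had at most 13 counts in a library.

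Igf1r, which encodes the IGF1 receptor (chromosome 7, 67952827 to 68233668, plus strand), was at 105, 136 and 105.8 CPM in knockout and at 125, 94.99 and 97.6 CPM in wild type. One library of each group was high, knockout replicate 2 and wild-type replicate 1, and the groups overlapped. The log2 fold change was 0.12 ± 0.16 (edgeR adjusted p = 0.853). It was −0.0095 without knockout replicate 2 and 0.26 without wild-type replicate 1, so its sign rested on 1 library.

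The 4 PDGF ligand genes did not share a direction. Pdgfb, the gene of PDGF-B, the ligand that binds both PDGF receptors, had the smallest p of the set and ranked 144 of the 15185 genes by p. On mm10 it occupies chromosome 15 from 79995900 to 80014808 on the minus strand. Its counts were 251, 259 and 405 in knockout replicates 1 to 3 and 123, 199 and 254 in wild-type replicates 1 to 3, which gave 14.3, 11.6 and 14.4 CPM in knockout and 7.31, 10.1 and 8.89 CPM in wild type. Every knockout library lay above every wild-type library, and the nearest were knockout replicate 2 and wild-type replicate 2. The means were 13.4 ± 1.57 CPM in knockout and 8.77 ± 1.41 CPM in wild type (SD, n = 3 each), which is 1.53-fold. The log2 fold change was 0.61 ± 0.17 and did not pass (edgeR adjusted p = 0.605, unadjusted 0.00574; exact 2-sided permutation p = 0.1, the smallest it can give). The adjusted p was 0.584 in limma voom and 0.208 in DESeq2. With any 1 library left out, the log2 fold change stayed between 0.50 and 0.73, and it was 0.50 without wild-type replicate 1 (edgeR adjusted p = 0.448).

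Endothelium is a main source of PDGF-B in vessels, so endothelial markers were read beside it. The summed CPM of 10 endothelial markers ran from 119 to 152 in knockout and from 117 to 137 in wild type, and the ranges overlapped. Of these 10 markers 7 passed the filter, and all 7 had a higher fitted mean in knockout (median log2 fold change 0.26, with 0 called in edgeR, DESeq2 or limma voom and 0 at an unadjusted edgeR p under 0.05). Most of that sum came from Pecam1, Erg and Esam. Cdh5, the endothelial cadherin gene, was between 0.171 and 0.584 CPM in knockout and between 0.0508 and 0.560 CPM in wild type, and Kdr, the VEGF receptor gene, had 0 counts in 1 library of each group. The part of endothelial cells in the Pdgfb difference was not tested. In bulk samples fewer cells of a type and less RNA per cell cannot be told apart.

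Pdgfa, the gene of PDGF-A, which binds PDGF receptor alpha, had the opposite sign. On mm10 it lies on chromosome 5 from 138976014 to 138997370, minus strand. It was at 84.1, 108 and 91.8 CPM in knockout and at 145, 107 and 98.4 CPM in wild type. Wild-type replicate 1 was the highest library and the other 5 lay close together, with the groups overlapping. The log2 fold change of −0.30 ± 0.17 (edgeR adjusted p = 0.778) was −0.12 without that library and −0.41 without wild-type replicate 3 or knockout replicate 2. The libraries ordered by Pdgfa were nearly the reverse of the order by Pdgfrb, from knockout replicate 1 (lowest Pdgfa, highest Pdgfrb) to wild-type replicate 1 (highest Pdgfa, lowest Pdgfrb). The antisense transcript 6330403L08Rik overlaps Pdgfa and was also highest in wild-type replicate 1, at 11.0, 16.7 and 14.1 CPM in knockout and 22.7, 15.4 and 15.02 CPM in wild type. The sources used here do not say if counting used strand, so reads of such pairs may not have been told apart.

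Pdgfc and Pdgfd encode the PDGF ligands that are secreted with an extra CUB domain and become active once a protease removes it. Pdgfc (chromosome 3, 81036416 to 81214040, plus strand) was at 48.1, 57.1 and 50.01 CPM in knockout and at 32.6, 51.2 and 38.4 CPM in wild type. Wild-type replicate 2 reached the knockout range and the other wild-type libraries were lower, for a log2 fold change of 0.35 ± 0.17 (edgeR adjusted p = 0.778), which was 0.21 without wild-type replicate 1 and 0.55 without wild-type replicate 2. Pdgfd (chromosome 9, 6168584 to 6378850, plus strand), whose product acts on PDGF receptor beta, was at 247, 229 and 228 CPM in knockout and at 128, 225 and 259 CPM in wild type. Here wild type held both the highest and the lowest library and the knockout libraries were close together. The log2 fold change of 0.20 ± 0.23 (edgeR adjusted p = 0.831) was −0.04 without wild-type replicate 1 and 0.41 without wild-type replicate 3.

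**Figure D2:**
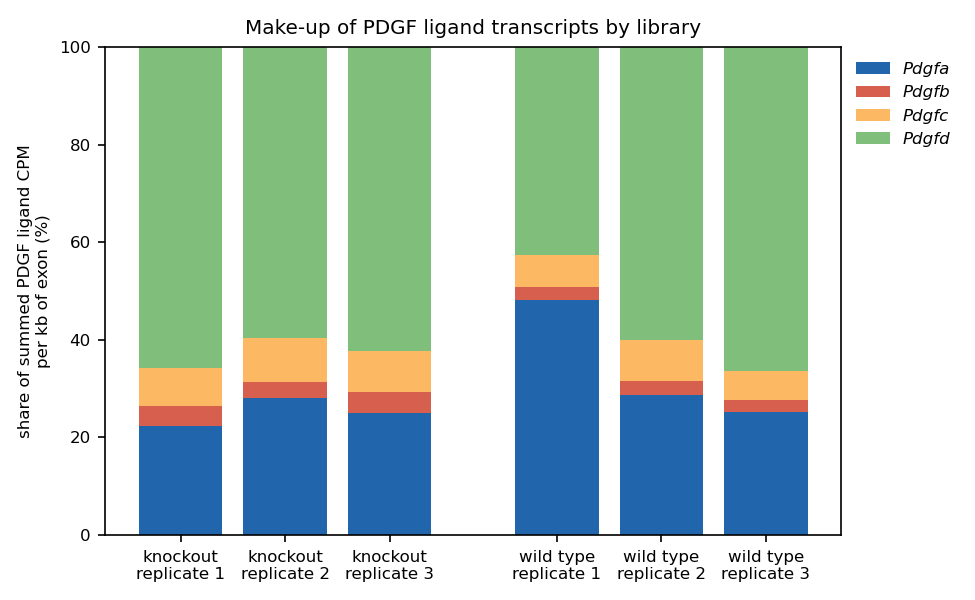
Share of each PDGF ligand gene in the summed CPM per kilobase of exon of the 4 PDGF ligand genes, in percent, for each knockout and wild-type library. Pdgfd makes up 59.6% to 65.7% in knockout and 42.6% to 66.3% in wild type, where replicate 1 has the lowest Pdgfd share and the highest Pdgfa share (48.1%).

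Set per kilobase of exon, so that genes of different length can be compared, Pdgfd had the largest mean share of the PDGF ligand transcripts in both groups. By library it was the largest in 5 of 6, the exception being wild-type replicate 1, where Pdgfa held 48.1% and Pdgfd 42.6%. Pdgfd made up 62.5 ± 3.08% of the PDGF ligand sum in knockout and 56.3 ± 12.3% in wild type (SD, n = 3 each). Pdgfa held 25.2 ± 2.86% in knockout and 34.0 ± 12.4% in wild type, and the wide wild-type spread came from replicate 1, against 28.7% and 25.2% in the others. Pdgfb was the rarest, at 3.84 ± 0.527% in knockout and 2.64 ± 0.232% in wild type. Its share lay between 3.24% and 4.21% in knockout and between 2.43% and 2.89% in wild type, and the groups did not overlap. The share is taken from the same Pdgfb values as the level above, so it is not a separate result.

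Over all 10 genes the level per kilobase of exon fell in the order Pdgfrb, Pdgfd, Fgf2, Pdgfa, Fgfr1, Igf1r, Pdgfc, Pdgfb, Egfr and Igf1. Pdgfrb was at 84.7 ± 7.62 CPM per kilobase in knockout and 66.4 ± 14.9 in wild type (SD, n = 3 each). On the same scale Egfr was at 3.77 ± 0.294 in knockout and 3.53 ± 0.162 in wild type, and Igf1 at 0.479 ± 0.294 in knockout and 0.894 ± 0.399 in wild type. Neighbours in this order overlapped over the 6 libraries except at 3 steps, below Igf1r, below Pdgfc and below Egfr. With the longest coding transcript as the length instead, Fgf2 came first, ahead of Pdgfrb and Pdgfd, and Egfr came ahead of Pdgfb. All lengths were from GENCODE vM1, where the longest annotated 3′ UTR had 271 bases for Fgf2 and 197 for Igf1r. If the messages counted were longer, the levels per kilobase of Fgf2 and Igf1r, and their places, would be too high. This was not tested.

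Fgf2 encodes basic FGF, a ligand that is stored in the matrix and lacks a classical secretion signal. It lies on chromosome 3 from 37348346 to 37410108, plus strand. It was at 131, 105 and 107 CPM in knockout and at 48.5, 97.0 and 99.98 CPM in wild type. The groups did not overlap, but 2 wild-type libraries came within reach of the knockout values and wild-type replicate 1 was far below the other 5. The means were 114 ± 14.3 CPM in knockout and 81.8 ± 28.9 CPM in wild type (SD, n = 3 each), with a log2 fold change of 0.48 ± 0.25 (edgeR adjusted p = 0.778; exact permutation p = 0.1) and of 0.21 without wild-type replicate 1 and 0.65 without wild-type replicate 3. Nudt6, whose gene overlaps Fgf2 on the other strand, was between 2.87 and 3.92 CPM in knockout and between 2.34 and 3.43 CPM in wild type. Fgf2os, an antisense RNA there, was at most 1.07 CPM in knockout and 0.773 CPM in wild type.

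Igf1, the gene of insulin-like growth factor 1 (chromosome 10, 87858265 to 87937042, plus strand), had the lowest level per length and the widest spread of the set. Its counts were 133, 110 and 49 in knockout replicates 1 to 3 and 138, 104 and 375 in wild-type replicates 1 to 3, which gave 7.57, 4.94 and 1.74 CPM in knockout and 8.20, 5.29 and 13.1 CPM in wild type. The first 2 libraries of each group held similar values, and the difference rested on the low knockout replicate 3 and the high wild-type replicate 3. The log2 fold change was −0.94 ± 0.49 (edgeR adjusted p = 0.778), and with 1 library left out it ran from −1.43 (without knockout replicate 1) to −0.52 (without knockout replicate 3), with −0.53 without wild-type replicate 3. Fibroblasts and macrophages also make IGF1. Dcn, the decorin gene of fibroblasts, was at 61.0, 86.8 and 28.2 CPM in knockout and 65.8, 53.2 and 51.4 CPM in wild type, so knockout replicate 3 was the lowest for both genes, while wild-type replicate 3 was not high for Dcn. Lum, Dpt, Clec3b, Cd34 and Gsn, of the same list, were also lowest in knockout replicate 3. Lum was at 52.8, 41.4 and 21.1 CPM in knockout and 33.3, 38.5 and 41.6 CPM in wild type. Gsn was lowest there by little, at 1094 CPM against 1101 CPM in knockout replicate 1. Pdgfra, Col14a1, Pi16 and Scara5, the rest of the list, were lowest in wild-type replicate 1. The sum of 10 fibroblast markers ran from 1270 to 1440 CPM in knockout and from 1370 to 1410 CPM in wild type, but Gsn alone gave 1090 to 1170 CPM in knockout and 1130 to 1150 CPM in wild type. For 10 macrophage markers the sum was 2.62 to 10.4 CPM in knockout and 5.05 to 10.4 CPM in wild type, with Adgre1 at 0 counts in 2 libraries of each group. Cd68 was at 0.512, 1.123 and 1.14 CPM in knockout and 2.68, 1.32 and 1.30 CPM in wild type, lower in every knockout library (−0.89, edgeR adjusted p = 0.778), and Lyz2 was at 0.569, 4.45 and 1.07 CPM in knockout and 0.416, 4.12 and 5.25 CPM in wild type (−0.70). Of the 4 macrophage markers that passed the filter, the other 2 went the opposite way, Cd14 (0.24) and Csf1r (0.13), with overlapping groups. The macrophage markers thus shared no direction. The part of fibroblasts and macrophages in the Igf1 values was not tested.

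**Figure D3:**
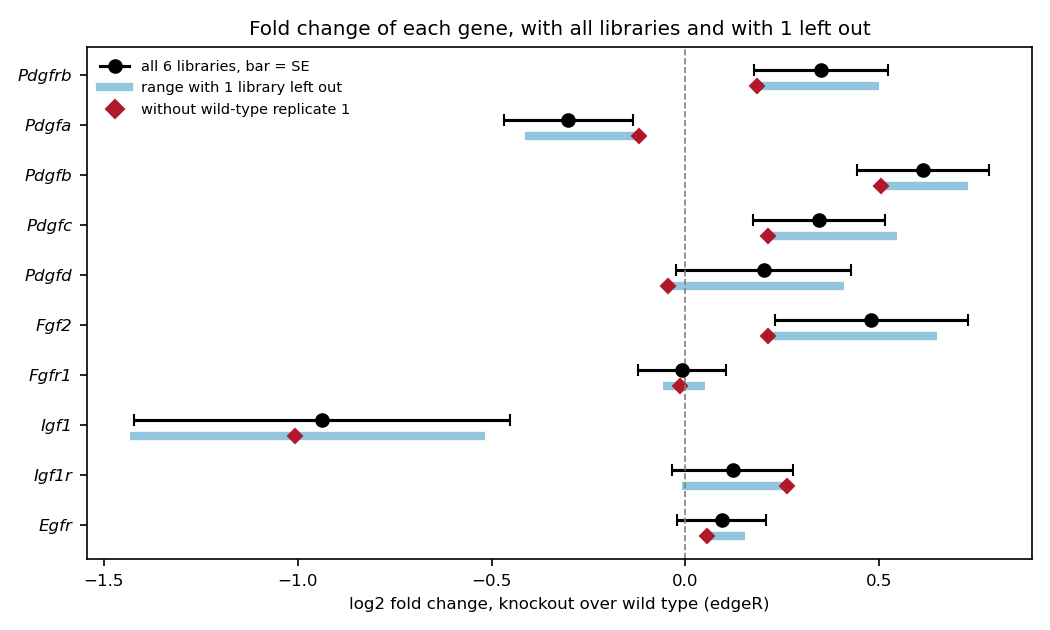
Log2 fold change of knockout over wild type (edgeR) for each of the 10 genes. Black points with bars are the values from all 6 libraries with their SE, blue bars span the values with 1 library left out, and red diamonds leave out wild-type replicate 1. Without that library Fgf2 is at 0.21 and Pdgfd at −0.04, while Pdgfb is at 0.50.

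The spread between libraries was uneven over the set. In knockout the coefficient of variation ran from 4.47% for Pdgfd to 15.3% for Igf1r, apart from 61.4% for Igf1, where the median over all genes tested was 10.9%. In wild type it ran from 4.58% for Egfr to 44.7% for Igf1, with Fgf2 at 35.4% and Pdgfd at 33.3%, where the median over all genes was 17.4%. For Fgf2, wild-type replicate 1 was at 0.492 times the mean of the other wild-type libraries, and for Pdgfd at 0.529 times. For Pdgfa it was at 1.41 times and for Igf1r at 1.30 times that mean.

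Some genes outside the set followed a receptor closely over the 6 libraries. By Pearson's r of log2 CPM among 9979 protein-coding genes with a mean of at least 5 CPM, Dimt1 (0.998) and Foxn2 (0.997) were most like Pdgfrb. Tob2 (0.990) and Kpnb1 (0.988) were most like Fgfr1, Ganc (0.992) and Zfp65 (0.983) most like Egfr, and Ankrd17 (0.985) and Nktr (0.979) most like Igf1r. With wild-type replicate 1 left out these values lay between 0.974 and 0.995. They are the highest of many values over 6 libraries that share depth and scaling, and are given as a description.

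Around the 10 genes, 147 further pathway genes were read from 8 lists, of which 128 were tested. In edgeR 0 of the 128 passed, with 5 higher and 6 lower at an unadjusted p under 0.05, where all genes gave 2.85% and 3.44%. DESeq2 called 2, Fgfrl1 and Etv5, where it called 0.475% of all genes to which it gave an adjusted p. Of the 128, limma voom called 0. The groups did not overlap for 19 of the 128, 11 higher and 8 lower, where all genes gave 6.95% and 7.57%. Without wild-type replicate 1 the median log2 fold change was −0.02 for the IGF list, −0.18 for the FGF list, 0.02 for the EGF list, −0.19 for the proteases, −0.0032 for the adaptors, 0.02 for the attenuators and −0.07 for the transcriptional response, against the medians of all 6 libraries given below. Values in parentheses after a gene are log2 fold changes of knockout over wild type, and levels are means ± SD (n = 3 each).

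Among the nearest relatives of the receptors, Pdgfra, the gene of PDGF receptor alpha and a marker of fibroblasts, was at 19.8, 12.5 and 12.99 CPM in knockout and at 4.04, 15.2 and 16.3 CPM in wild type. The low library was wild-type replicate 1, and the log2 fold change of 0.33 was −0.07 without it and 0.63 without wild-type replicate 3. Of the 7 genes of the PDGF list, Pdgfra included, 5 had a positive fold change (median 0.13 on the log2 scale). Kit, a receptor gene of the same family, led them by p, at 36.8 ± 10.2 CPM in knockout and 22.96 ± 12.5 CPM in wild type (0.68, with 0.34 without wild-type replicate 1 and 1.11 without wild-type replicate 2). Lrp1, the gene of a large endocytic co-receptor of PDGF signalling, was at 881 ± 64.3 CPM in knockout and 815 ± 26.9 CPM in wild type (0.11, and 0.05 without knockout replicate 2). Pdgfrl (−0.39) and the neuropilin gene Nrp2 (0.46) did not pass either. With 1 library left out Pdgfrl ran from −0.54 (without wild-type replicate 3) to −0.19 (without knockout replicate 2), and Nrp2 from 0.22 (without knockout replicate 2) to 0.72 (without wild-type replicate 2).

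In the FGF family, Fgfrl1 encodes an FGF receptor without a kinase domain. Its levels were 101, 103 and 103 CPM in knockout and 143, 147 and 139 CPM in wild type. The groups were far apart against their spread, with means of 102 ± 1.34 CPM in knockout and 143 ± 3.99 CPM in wild type (SD, n = 3 each). The log2 fold change was −0.49 ± 0.10, with −0.48 when wild-type replicate 1 was left out. Fgfrl1 fell in DESeq2 (adjusted p = 0.00397) and did not pass in edgeR (adjusted p = 0.489). Among the 13 FGF genes tested the fitted mean was higher for 7 and lower for 6 (median 0.0042), and Flrt3, the gene of a membrane partner of FGF receptors, was at 2.70 ± 0.238 CPM in knockout and 4.46 ± 0.997 CPM in wild type (−0.73, edgeR adjusted p = 0.760). The groups did not overlap for 2 of the 13, Fgfrl1 and Flrt3, both lower, where all genes gave 7.57% in that direction. Fgf1, the acidic FGF gene (0.31), Fgfr2 (0.12), Fgf7 (0.03) and Fgf14 (−0.28) overlapped and did not pass. Without wild-type replicate 1, Fgf1 was at 0.15, Fgfr2 at −0.07 and Fgf7 at 0.29, and Fgf14 was at −0.13 without knockout replicate 3.

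In the IGF family, Igf2, the gene of the second IGF ligand, was at 2.50, 3.55 and 4.24 CPM in knockout and at 5.71, 6.56 and 4.59 CPM in wild type, and its groups did not overlap (log2 fold change −0.70, edgeR adjusted p = 0.775). Both IGF ligand genes thus had lower fitted means, and neither passed. Igf2r, the gene of the receptor that clears IGF2, was at 107 ± 12.8 CPM in knockout and 83.7 ± 29.6 CPM in wild type (0.36, and 0.09 without wild-type replicate 1). Insr, the insulin receptor gene, was at −0.04, and at 0.38 without that library (edgeR adjusted p = 0.619). Of the 11 IGF and insulin genes, 7 had a higher fitted mean (median 0.12), among them Irs1 (0.18), a docking protein gene, and Stc2 had a lower one (−0.24, with −0.36 without wild-type replicate 1 and −0.13 without wild-type replicate 2).
Of 10 EGF and ErbB genes, 6 had a higher fitted mean (median 0.08). Hbegf, the gene of a heparin-binding EGF receptor ligand, was at 137 ± 47.1 CPM in knockout and 143 ± 29.7 CPM in wild type (−0.06), and Erbb2, a co-receptor gene, at 27.1 ± 2.67 CPM in knockout and 24.6 ± 4.45 CPM in wild type (0.14). Erbb3 had few counts, at 0.362 ± 0.265 CPM in knockout and 0.516 ± 0.135 CPM in wild type (−0.41). Btc, another ligand gene (−0.20), and the sheddase genes Adam17 (0.22) and Adam10 (0.27) did not pass, and without wild-type replicate 1 Adam17 was at 0.04, Adam10 at −0.0012 and Erbb2 at 0.03. The highest values with 1 library left out were 0.37 for Adam17 (without wild-type replicate 2), 0.44 for Adam10 (without wild-type replicate 2) and 0.29 for Erbb2 (without wild-type replicate 2). Btc was at −0.31 without that library, and ran from −0.38 (without knockout replicate 1) to −0.05 (without knockout replicate 2).

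Of 6 genes of proteases that process growth factor precursors, the fitted mean was higher for 3 and lower for 3 (median −0.13). Plat, which encodes the tissue plasminogen activator that cleaves PDGF-C, was at 77.2 ± 7.16 CPM in knockout and 70.1 ± 10.2 CPM in wild type (0.14, with 0.06 without wild-type replicate 3 and 0.26 without wild-type replicate 1). Pcsk6, a proprotein convertase gene, was at 28.7, 29.996 and 26.4 CPM in knockout and at 31.1, 40.2 and 41.8 CPM in wild type. Its groups did not overlap (−0.41, edgeR adjusted p = 0.775), while Pcsk5 (−0.30) and Pcsk7 (0.22) overlapped.

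Downstream, the fitted mean of adaptor and kinase genes was higher for 24 of 37 and lower for 13 (median 0.09). Gab1, the gene of a docking protein below several of these receptors, was at 75.8, 74.3 and 66.1 CPM in knockout and at 34.8, 56.7 and 55.3 CPM in wild type, with no overlap (0.56, edgeR adjusted p = 0.760, and 0.36 without wild-type replicate 1). Frs2, which encodes the adaptor of FGF receptors, was at 54.2 ± 8.65 CPM in knockout and 38.2 ± 11.8 CPM in wild type (0.50, and 0.26 without that library). Pik3r2 (0.28), a PI3K regulatory subunit gene, and Tsc1 (0.30, and 0.17 without knockout replicate 2), a brake on mTOR, did not pass. Like Gab1, the genes Frs2, Pik3r2 and Tsc1 had no overlap. Of the 37 genes, 4 were higher and 1 lower without overlap, where all genes gave 6.95% and 7.57%.

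Among 22 attenuators of receptor signals, the fitted mean was higher for 13 and lower for 9 (median 0.08). Spry1, a Sprouty gene, was at 30.3 ± 1.77 CPM in knockout and 39.5 ± 4.34 CPM in wild type (−0.38), whereas Spred1 was at 55.4 ± 5.72 CPM in knockout and 38.4 ± 12.1 CPM in wild type (0.52, and 0.29 without wild-type replicate 1). The phosphatase genes Dusp6 (0.48, and 0.29 without that library) and Dusp4 (0.63) had positive values, and 0 of the 22 passed in edgeR. Spry1, Spred1 and Dusp4 had no overlap, while Dusp6 overlapped. Of the 22 attenuators, 4 were higher and 1 lower without overlap, where all genes gave 6.95% and 7.57%.
Of 22 genes of the transcriptional response, the fitted mean was higher for 6 and lower for 16 (median −0.21). Etv5, an ETS factor gene, was at 20.1, 19.6 and 18.8 CPM in knockout and at 7.67, 12.05 and 10.7 CPM in wild type and rose in DESeq2 (log2 fold change 0.94, adjusted p = 0.00226) but did not pass in edgeR (adjusted p = 0.398). Ier3, an immediate early gene, was at 165 ± 37.0 CPM in knockout and 257 ± 83.1 CPM in wild type (−0.64, and −0.34 without wild-type replicate 1). Etv1 (0.23) and Phlda1 (−0.37, and −0.12 without that library) did not pass. Etv5, Etv1 and Ier3 had no overlap, while Phlda1 overlapped. Of the 22 response genes, 3 were higher and 2 lower without overlap, where all genes gave 6.95% and 7.57%.

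**Figure D4:**
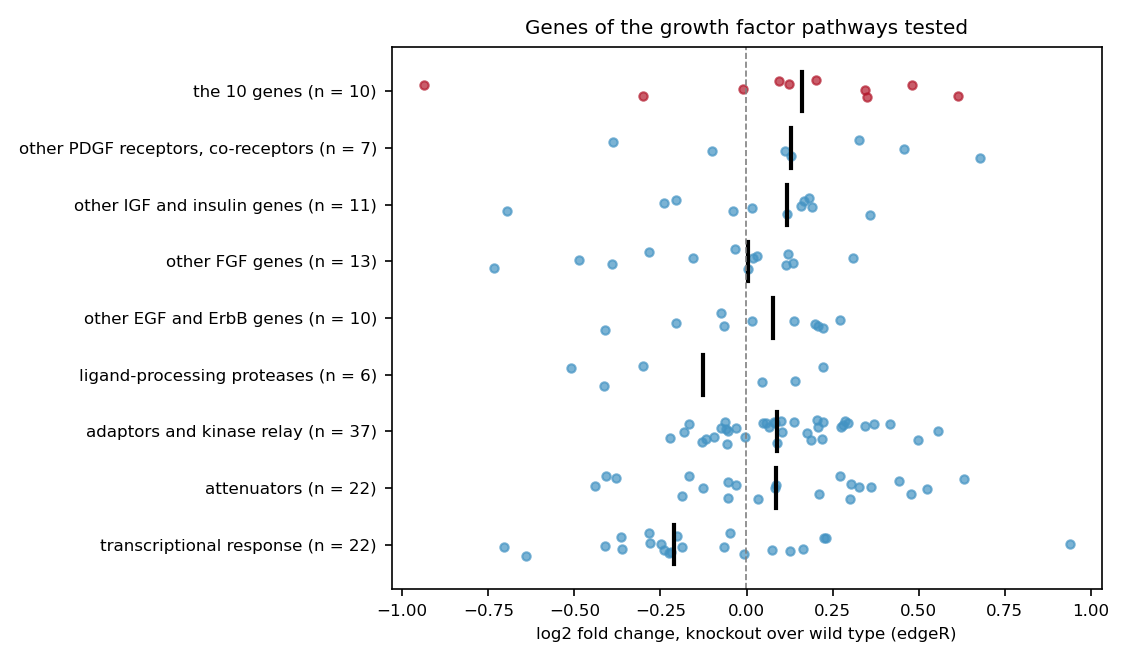
Log2 fold change of knockout over wild type (edgeR) for every tested gene of the set (red) and of the 8 other pathway lists (blue), with the number tested in parentheses. Black bars are list medians and the dashed line is the median of all genes tested; the medians run from −0.21 for the transcriptional response to 0.16 for the 10 genes.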

How the data were processed

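Bulk RNA sequencing measured 6 libraries, 3 per genotype. Per the labels' protocols, RNA was taken with Trizol and libraries were made with the Illumina TruSeq RNA kit. Per the submitters' processing notes, STAR 2.6, DESeq2 and build mm10 were used. No source used here names the counting tool. The authors deposited expected counts per gene without scaling, since 65.4% of values lay within 0.01 of a whole number. They were rounded to whole numbers. The deposited stop was reduced by 1 to give 1-based ends.

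Genes were filtered with filterByExpr and scaled with TMM in edgeR 4.0.16 (R 4.3.3), tested with glmQLFit and glmQLFTest (robust=TRUE) and adjusted by Benjamini-Hochberg over all 15185 genes. Each SE came from the log2 fold change and its F statistic. Exact permutation tests used log2 CPM with a prior count of 2. Alternatives were DESeq2 1.42.0, limma voom 3.58.1, other scaling, no filter, robust=FALSE, protein-coding genes, a replicate block and leaving out each library. The code was tested on simulated data.

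The 10 genes, the lists and the rule for naming genes (all 10; up to 4 per list with the smallest p and a mean of at least 1 CPM; the nearest relatives of the set; the 2 genes most like each receptor) were chosen with earlier results of these data known. The value without wild-type replicate 1 for the likeness to a receptor, the exon-length split and the antisense genes were chosen after seeing the data.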

Additional observations from a re-analysis of the deposited data

How the results depend on the processing

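Of 140 recomputed log2 fold changes of the 10 genes, 134 kept their direction and side of the threshold. The other 6 turned sign, and the cause was not tested. Pdgfd ran from −0.044 (without wild-type replicate 1) to 0.41, Igf1r from −0.0095 (without knockout replicate 2) to 0.26, and Fgfr1 from −0.058 to 0.051 as 1 library was left out, with 0.032 for Fgfr1 under library totals. Of the 10 genes 0 were called under any of the 14 alternatives.

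Over all genes DESeq2 called 68 where edgeR called 0, and edgeR called 0 to 9 with 1 library left out, with 9 without wild-type replicate 1 and 1 without wild-type replicate 2. At an unadjusted edgeR p under 0.05, 433 genes were higher and 522 lower in knockout. With 1 library left out the counts were 256 to 626 higher and 348 to 645 lower, and without knockout replicate 1 or 2 the higher ones were 256 and 271. Under library totals they were 643 and 376, so the higher share was 63.1% against 45.3%. The sources used here do not say whether replicate numbers pair the libraries. Deviations from the group mean correlated at −0.27, −0.177 and −0.0835 for same-numbered libraries. For libraries of different numbers the values ran from −0.106 to 0.213. With 3 libraries per group, these values cannot show whether the libraries were paired. With the number as a replicate block 257 genes were higher and 315 lower, and 0 were called. Among the 128 pathway genes DESeq2 called 2 and edgeR 0.

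Signs also turned for named pathway genes. Insr was at 5.858e-05 under library totals, 0.028 in limma voom and 0.032 with the block, and ran from −0.22 to 0.38 as 1 library was left out. Fgf7 was at −0.083 in limma voom and −0.035 with the block, and ran from −0.28 to 0.36. The ranges with 1 library left out were −0.0061 to 0.30 for Irs1, −0.0012 to 0.44 for Adam10, −0.074 to 0.63 for Pdgfra and −0.074 to 0.24 for Fgfr2, the lowest each time without wild-type replicate 1. They were −0.36 to 0.145 for Hbegf and −0.80 to 0.023 for Erbb3. The lowest count of any of the 10 genes was 49, for Igf1 in knockout replicate 3, whose library total of 27568002 was not among the lowest, and an effect of depth was not tested.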
